A study of Homo sapiens with 4 samples.

Results

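The solute carrier (SLC) genes encode membrane proteins that move amino acids, sugars, ions, metals, nucleotide sugars and organic molecules across the plasma membrane and the membranes of organelles. They were taken as every probe whose gene symbol in the platform's probe table has the form SLC, a family number, a subfamily letter and a member number. This gave 90 probes of 49 genes in 25 families, among 4604 genes on the arrays. Of the 49 genes, 37 had a value on all 4 arrays (75.5%, against 79.8% of all genes), and these 37 were tested. The symbol form also takes in SLC71A3P, whose name marks a pseudogene.

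The 4 arrays were two-colour arrays of OCI-Ly3, an established human B-lymphoma line of the activated B-cell-like (ABC) subtype. The cells carried a short hairpin RNA that doxycycline induces and that targets IKKa, the product of CHUK. Each array set doxycycline-treated cells (20 ng/ml, labelled with Cy5) against cells without doxycycline (Cy3). A pair of arrays, after 2 and 3 days of doxycycline, had no inhibitor in either channel. In the other pair MLN120b (12.5 uM), which inhibits the related kinase IKKb, was in both channels, for 3 h on the 2-day array and for 24 h on the 3-day array. By its title the series asks whether IKKa compensates in the classical NF-kB pathway under IKKb inhibition. Values are log2 ratios, read as induced over uninduced cells, which is the likely direction and is not stated in the file. Turned the other way, every sign here would turn. All arrays had the dyes in the same orientation and none had doxycycline without the hairpin, so the hairpin, doxycycline itself and a dye bias of a probe cannot be told apart in a single ratio. Each group thus pairs a 2-day and a 3-day array, and an SD over the pair (n = 2) includes whatever differed by day. Separate cultures are not named in the labels, so p-values measure the spread between these arrays, which may be technical.

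Transporters of the SLC1, SLC7 and SLC38 families supply growing lymphoid cells with amino acids, and SLC2 carriers supply glucose. SLC25 carriers connect the mitochondrial matrix with the cytosol, SLC9 and SLC12 proteins set cell pH, volume and chloride, and SLC30 and SLC39 proteins move zinc out of and into the cytosol. Nutrient carriers respond in lymphocytes to MYC, mTORC1 and the amino acid stress factor ATF4, and NF-kB can regulate glucose uptake.

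The SLC genes lay on both sides of 0 and none passed the test in any comparison. Among the 37 tested, 19 had a mean below 0 and 18 above 0 without inhibitor, and again 19 and 18 with inhibitor. Of all 3675 genes tested, 52.9% were below 0 without and 49.7% with inhibitor. Their median was -0.01 without and -0.03 with inhibitor, against -0.01 and 0.00 over all genes. The side of 0 of these medians was not stable: without inhibitor the median was 0.04 over SLC genes with both arrays of the group and 0.01 after centring or scaling, and with inhibitor it was 0.03 after scaling to equal spread. The 10 of 37 below 0 on all 4 arrays (27%) compare with 23.8% of all genes, and the 7 above 0 (18.9%) with 17.3%. The 10 were SLC39A14, SLC26A2, SLC38A2, SLC25A38, SLC3A2, SLC2A1, SLC17A9, SLC7A5, SLC25A33 and SLC46A3. The 7 were SLC12A7, SLC35A1, SLC8B1, SLC71A3P, SLC25A13, SLC9A5 and SLC7A6. With only probes measured on all 4 arrays, SLC12A7 and SLC7A6 each had 1 array below 0, and SLC38A1 was below 0 on every array. These shares are close to those of all genes.

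**Figure D1:**
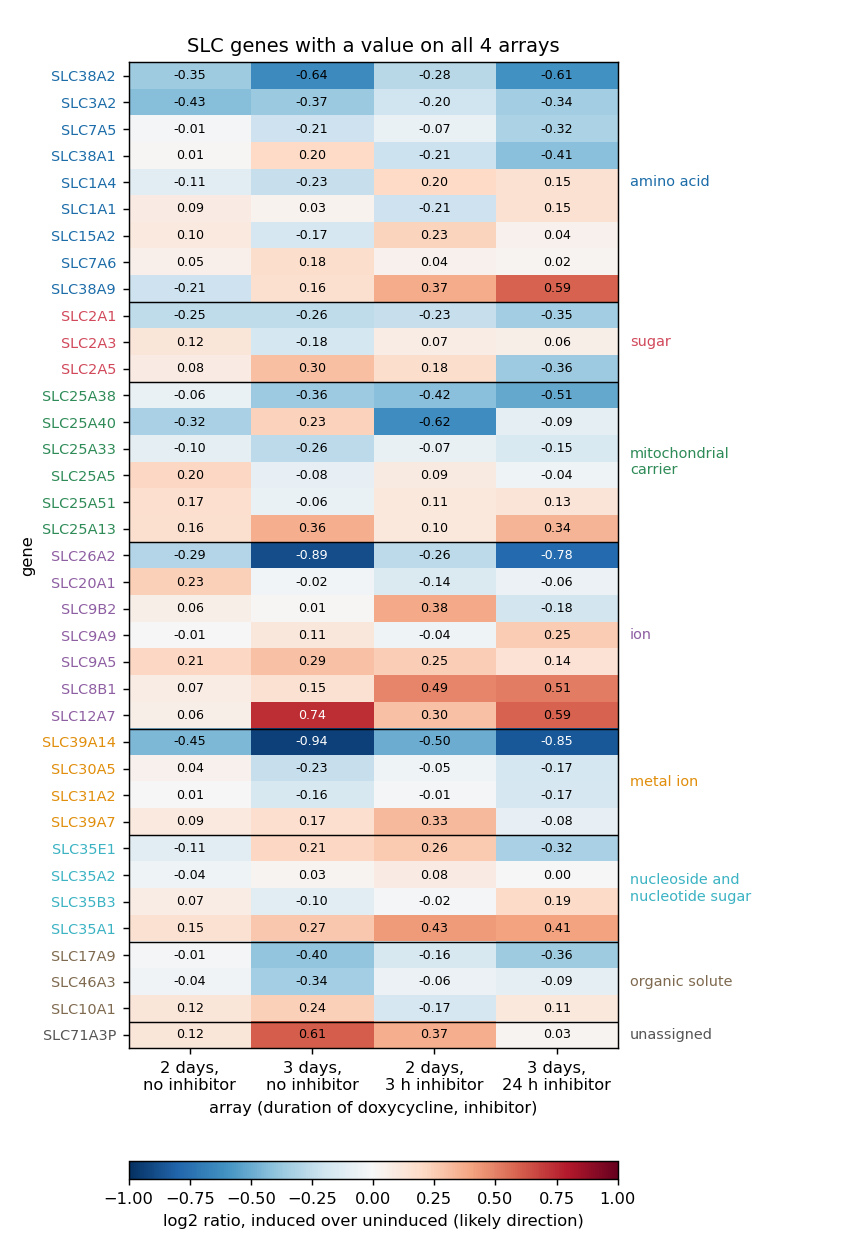
Log2 ratio, induced over uninduced in the likely direction, of the 37 SLC genes with a value on all 4 arrays (rows, grouped by transporter class and sorted by mean within it) on each array (columns). SLC39A14, SLC26A2 and SLC38A2 are the darkest rows below 0, and SLC8B1, SLC35A1 and SLC12A7 lie above 0 on every array. For SLC12A7 this holds for averaged probes and not for its 1 probe measured on all 4 arrays.

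Promoter sequences are shown for 4 carriers with values on all arrays, to let the letters before their starts be read beside the ratios. They are the 250 bases before the annotated start (RefSeq, GRCh38.p14), 5′ to 3′ on the gene's own strand, at chr1:42958869-42959118 (minus strand) for SLC2A1, chr2:64989149-64989398 (plus) for SLC1A4, chr5:149960508-149960757 (plus) for SLC26A2 and chr3:39383120-39383369 (plus) for SLC25A38. SLC2A1 and SLC1A4 hold a match to the kB consensus, the letters that NF-kB dimers bind. SLC26A2 and SLC25A38 hold the E-box CACGTG, which MYC with MAX and related factors bind. Capitals mark the match.
SLC2A1: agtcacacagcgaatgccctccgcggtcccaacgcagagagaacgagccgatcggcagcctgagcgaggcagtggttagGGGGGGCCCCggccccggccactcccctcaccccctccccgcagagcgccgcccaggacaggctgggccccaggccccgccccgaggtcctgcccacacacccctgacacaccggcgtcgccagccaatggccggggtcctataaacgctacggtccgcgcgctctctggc
SLC1A4: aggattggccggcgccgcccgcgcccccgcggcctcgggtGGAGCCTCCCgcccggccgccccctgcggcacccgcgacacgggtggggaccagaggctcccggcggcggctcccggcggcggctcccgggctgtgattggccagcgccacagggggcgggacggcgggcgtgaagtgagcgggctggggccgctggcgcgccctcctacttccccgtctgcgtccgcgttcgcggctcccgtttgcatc
SLC26A2: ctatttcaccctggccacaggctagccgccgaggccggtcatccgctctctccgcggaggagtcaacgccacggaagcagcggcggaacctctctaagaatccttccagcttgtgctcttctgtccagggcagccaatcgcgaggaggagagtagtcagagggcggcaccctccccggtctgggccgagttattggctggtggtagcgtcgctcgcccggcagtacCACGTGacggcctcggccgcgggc
SLC25A38: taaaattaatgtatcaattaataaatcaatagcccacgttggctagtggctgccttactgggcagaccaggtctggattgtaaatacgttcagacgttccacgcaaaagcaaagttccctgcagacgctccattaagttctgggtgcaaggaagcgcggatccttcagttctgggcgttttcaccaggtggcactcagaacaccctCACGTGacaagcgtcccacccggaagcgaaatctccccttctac

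The kB match began at -171 from the start in SLC2A1 and at -210 in SLC1A4, where it was on the opposite strand. The E-box began at -24 in SLC26A2 and at -44 in SLC25A38. Windows of this kind existed for 42 of the 49 SLC genes and for 27305 genes in all, some with several starts, and both strands were searched. A kB match stood before 7 of the 42 SLC genes (16.7%), against 11.8% of all genes, and the motifs did not overlap in the sequences shown. Of these 7, SLC2A1 was below 0 on all arrays, SLC9A5 above 0 on all, SLC1A4 and SLC20A1 had means on opposite sides of 0 in the groups, and SLC16A10, SLC6A20 and SLC9A8 were not measured on all 4 arrays. CACGTG stood before 9 of 42 (21.4%), against 7.73%. Among those 9, SLC26A2, SLC25A38, SLC25A33 and SLC7A5 had means below 0 in both groups, SLC12A7 (not on its 1 complete probe), SLC25A13, SLC9A5 and SLC25A51 above 0 in both, and SLC20A1 on either side. The amino acid response letters TGATGNAA stood before 3 of 42 (7.14%), against 3.89%, namely SLC11A1, SLC2A5 and SLC9A9. A match is a description of letters, and whether any factor bound there was not measured.

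Amino acid carriers were the largest class, with 11 genes, 9 of them on all 4 arrays. SLC38A2 had the lowest mean of the class in both groups, and SLC38A9 the highest with inhibitor. Of the 9 means, 6 were below 0 without inhibitor (median -0.04) and 5 with it (median -0.03). SLC38A2, the sodium-coupled neutral amino acid transporter SNAT2 that cells induce on amino acid shortage, stood at -0.35 and -0.64 at 2 and 3 days without inhibitor and at -0.28 and -0.61 with it. All 4 arrays were below 0, and each 3-day value was lower than the 2-day value. The means came to -0.50 ± 0.20 (SD, n = 2), 1.41-fold lower, without inhibitor and -0.44 ± 0.23 with it, 1.36-fold (limma adjusted p = 0.352 and 0.103). Its 2 probes differed in size. One read -0.82, -1.04, -0.46 and -1.15 in the same order, and passed as a single probe in limma (adjusted p = 0.0427 without and 0.0169 with inhibitor). The other read 0.11, -0.23, -0.09 and -0.07 and did not pass. Over all 6796 probes tested singly, 1.03% passed without and 11.7% with inhibitor.

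SLC3A2, the heavy chain CD98 that carries LAT1 and other light chains to the cell surface, read -0.43 and -0.37 without inhibitor and -0.20 and -0.34 with it. Every array was below 0, and both inhibitor values lay above both values without inhibitor. The means were -0.40 ± 0.04 (1.32-fold lower) and -0.27 ± 0.10 (SD, n = 2; limma adjusted p = 0.37 and 0.186), and its 2 probes were below 0 on every array. SLC7A5, the LAT1 light chain for large neutral amino acids, stood at -0.01, -0.21, -0.07 and -0.32 on the 2-day and 3-day arrays without and then with inhibitor. It shared the sign of its partner on every array, at a smaller size on each, and did not pass (0.807 and 0.367). SLC7A6, the light chain y+LAT2 that exchanges cationic for neutral amino acids, stood at 0.05, 0.18, 0.04 and 0.02, though its 1 probe measured on all arrays had a mean of -0.04 with inhibitor.

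SLC38A9, a lysosomal arginine transporter and sensor for mTORC1, read -0.21 and 0.16 without inhibitor and 0.37 and 0.59 with it. The inhibitor values lay above both others, and the mean with inhibitor was 0.48 ± 0.15 (SD, n = 2), 1.40-fold higher (limma adjusted p = 0.0889), from 1 probe. SLC38A1, the neutral amino acid transporter SNAT1, read 0.01 and 0.20 without and -0.21 and -0.41 with inhibitor. It had 4 probes but only 1 with a value on all arrays, and that probe read -0.03, -0.23, -0.08 and -0.41, below 0 in both groups. SLC1A4, the neutral amino acid exchanger ASCT1, read -0.11 and -0.23 without and 0.20 and 0.15 with inhibitor. SLC1A1, a glutamate and cysteine transporter, read 0.09, 0.03, -0.21 and 0.15, and SLC15A2, a peptide transporter, 0.10, -0.17, 0.23 and 0.04. Both changed sign between arrays of 1 group.

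Sugar carriers comprised 4 genes, 3 of them on all 4 arrays, and SLC2A1 was the one that kept its sign. SLC2A1, the glucose transporter GLUT1, read -0.25 and -0.26 without inhibitor and -0.23 and -0.35 with it. The 4 arrays lay within 0.12 of each other, and its 2 probes were below 0 on every array. The means were -0.26 ± 0.002 (1.19-fold lower) and -0.29 ± 0.08 (1.22-fold; SD, n = 2; limma adjusted p = 0.522 and 0.16). SLC2A3, the glucose transporter GLUT3, had 3 probes and read 0.12, -0.18, 0.07 and 0.06. SLC2A5, a fructose transporter, read 0.08, 0.30, 0.18 and -0.36, where the last value includes a probe at -1.20 that had a value on that array only. Its 1 probe with all values read -0.03, 0.51, 0.18 and -0.03. SLC5A6, a vitamin transporter placed here by its family, had a value on 1 array (-0.03). The class median with inhibitor, -0.09, became 0.07 with only probes measured on all 4 arrays, so its side of 0 depended on that choice.

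Mitochondrial carriers of the SLC25 family comprised 8 genes, 6 of them on all 4 arrays, with 3 means below and 3 above 0 in each group. SLC25A38, which brings glycine into mitochondria for haem synthesis, read -0.06 and -0.36 without inhibitor and -0.42 and -0.51 with it. Both inhibitor arrays were lower than both others, and the mean with inhibitor was -0.47 ± 0.06 (SD, n = 2), 1.38-fold lower (limma adjusted p = 0.0822), from 1 probe. SLC25A40, a mitochondrial glutathione carrier, read -0.32 and 0.23, then -0.62 and -0.09. Its 2-day values were the lower ones in both groups, the reverse of SLC38A2. SLC25A33, a pyrimidine nucleotide carrier, stayed between -0.07 and -0.26 on the 4 arrays. SLC25A13, the aspartate/glutamate carrier citrin, was above 0 throughout, at 0.16, 0.36, 0.10 and 0.34. SLC25A5, the adenine nucleotide translocase ANT2 that exchanges ATP for ADP, rested on 5 probes and read 0.20, -0.08, 0.09 and -0.04, with both 3-day values below 0. SLC25A51, the NAD carrier, read 0.17, -0.06, 0.11 and 0.13.

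Ion carriers comprised 9 genes, 7 of them on all 4 arrays, and lay mostly above 0, with 6 of 7 means above 0 without inhibitor (median 0.11) and 5 with it (median 0.10). With only probes measured on all 4 arrays the median without inhibitor was 0.03. SLC8B1, the sodium/calcium exchanger NCLX of the inner mitochondrial membrane, read 0.07 and 0.15 without inhibitor and 0.49 and 0.51 with it. The groups did not overlap, and the inhibitor mean was 0.50 ± 0.02 (SD, n = 2), 1.42-fold higher (limma adjusted p = 0.0619), against 0.11 ± 0.06 without (0.774). Each of its 3 probes was above 0 on both inhibitor arrays, and 2 of them passed there as single probes (limma adjusted p = 0.0352 and 0.0465). Of the 56 SLC probes tested singly 4 passed with inhibitor, where 11.7% of all single probes did. SLC26A2, the sulfate transporter that feeds proteoglycan sulfation, was the lowest of its class in both groups, at -0.29 and -0.89 without and -0.26 and -0.78 with inhibitor. Both 3-day values were lower than both 2-day values. Its means were -0.59 ± 0.42 (1.51-fold lower) and -0.52 ± 0.36 (1.43-fold; limma adjusted p = 0.413 and 0.133), from 1 probe.

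SLC12A7, the potassium/chloride cotransporter KCC4, read 0.06 and 0.74 without and 0.30 and 0.59 with inhibitor. The 0.74 averages a probe at 0.01 and a second at 1.46 that had no value on the inhibitor arrays. With the first probe alone the mean without inhibitor was -0.05 in place of 0.40, while the mean with inhibitor, from that probe alone, was 0.44 (limma adjusted p = 0.174 in the fit on averaged probes). Its difference between the groups was 0.04 on averaged probes and 0.49 on the first probe. SLC9A5, a sodium/proton exchanger, read 0.21, 0.29, 0.25 and 0.14. SLC9A9, an endosomal sodium/proton exchanger, read -0.01, 0.11, -0.04 and 0.25, and SLC9B2, of the same family, 0.06, 0.01, 0.38 and -0.18. SLC20A1, a phosphate importer, read 0.23, -0.02, -0.14 and -0.06, and its 2 probes with all values had means of opposite sign (-0.28 and 0.20).

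Metal ion carriers comprised 6 genes, 4 of them on all 4 arrays. SLC39A14, the plasma membrane transporter ZIP14 that takes up zinc, iron and manganese, stood lowest of all 37 carriers. It read -0.45 and -0.94 without inhibitor and -0.50 and -0.85 with it, and was the only SLC gene past 1.25-fold in one direction on all 4 arrays (2.83% of all genes were). Its means were -0.69 ± 0.34 (1.62-fold lower) and -0.67 ± 0.25 (1.59-fold; SD, n = 2; limma adjusted p = 0.249 and 0.064), from 1 probe. Only 1.1% of all genes had a lower mean without inhibitor and 3% with it. SLC39A7, the zinc channel ZIP7 of the endoplasmic reticulum, read 0.09, 0.17, 0.33 and -0.08. SLC30A5, which loads zinc into the secretory pathway, read 0.04, -0.23, -0.05 and -0.17. SLC31A2, a copper transporter of internal membranes, read 0.01, -0.16, -0.01 and -0.17, an average over probes that disagreed in sign (means of -0.35 and 0.18).

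The nucleotide sugar carriers, which bring activated sugars into the Golgi, were 4 genes of the SLC35 family, all measured on 4 arrays. SLC35A1, the CMP-sialic acid transporter, read 0.15 and 0.27 without and 0.43 and 0.41 with inhibitor. Its 2 probes were above 0 on every array and the groups did not overlap. The inhibitor mean was 0.42 ± 0.01 (SD, n = 2), 1.33-fold higher (limma adjusted p = 0.083), against 0.21 ± 0.09 without (0.591). SLC35A2, the UDP-galactose transporter, stayed between -0.04 and 0.08, although its 3 probes had means from -0.16 to 0.35. SLC35B3, which carries the sulfate donor PAPS, read 0.07, -0.10, -0.02 and 0.19. SLC35E1 read -0.11, 0.21, 0.26 and -0.32, with both signs in each group.

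Carriers of other organic solutes comprised 5 genes, 3 of them on all 4 arrays. SLC17A9, the vesicular nucleotide transporter, read -0.01, -0.40, -0.16 and -0.36, and SLC46A3, a lysosomal transporter, -0.04, -0.34, -0.06 and -0.09. Both were below 0 throughout, and lower at 3 than at 2 days in each group. SLC10A1, a bile acid transporter known from liver, read 0.12, 0.24, -0.17 and 0.11. SLC71A3P, for which no class was assigned, read 0.12, 0.61, 0.37 and 0.03.

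Among genes with several probes, agreement varied. Of the 13 SLC genes with 2 or more probes measured on all 4 arrays, 6 had probe means of the same sign and 7 did not. SLC2A1 had the closest probe means (0.02 apart), with SLC35A1 (0.06), SLC8B1 (0.09) and SLC3A2 (0.12) also close. SLC38A2 had the widest (0.80 apart), followed by SLC31A2 (0.52), SLC35A2 (0.51) and SLC20A1 (0.48). For these 4 the probes differed by more than the gene's averaged value did between arrays. For 10 of the 37 genes, 3 of them (SLC1A1, SLC20A1 and SLC35B3) among these 13, the average took in different probes on different arrays.

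**Figure D2:**
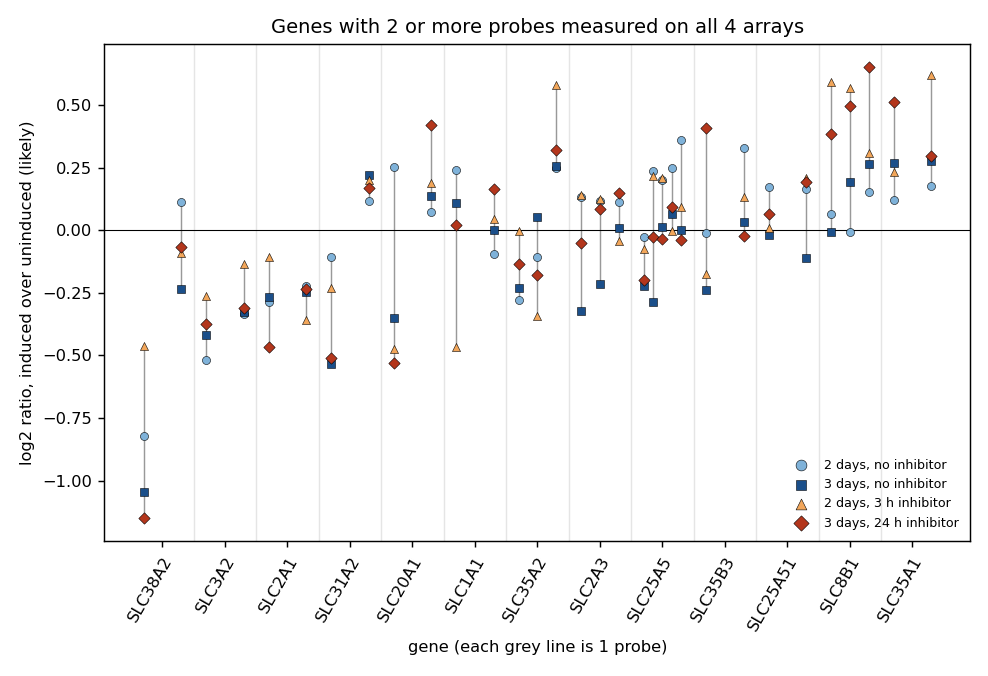
Log2 ratio of each probe (1 grey line per probe, 1 symbol per array) for the 13 SLC genes with at least 2 probes measured on all 4 arrays, ordered by mean. The SLC38A2 probes have means of -0.87 and -0.07, whereas the SLC2A1 probes have means of -0.28 and -0.26.

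The pair without inhibitor gives the ratio of induced over uninduced cells with IKKb not inhibited. Hairpin, doxycycline and dye bias are not separated in it. The lowest SLC means were SLC39A14 (-0.69), SLC26A2 (-0.59), SLC38A2 (-0.50) and SLC3A2 (-0.40). The highest were SLC12A7 (0.40), SLC71A3P (0.36), SLC25A13 (0.26) and SLC9A5 (0.25). On its 1 probe measured on all 4 arrays, SLC12A7 had a mean of -0.05 and would not rank there. Limma called 0 of 37 SLC genes at an adjusted p under 0.05 (0% of all 3675 genes), and 4 had an unadjusted p under 0.05 (10.8%, against 9.47% of all genes), the 4 lowest ones just named. At 1.5-fold, the size used for naming, no SLC gene was lower or higher on both arrays (0.871% of all genes were). At 1.25-fold, a size chosen after the data were seen, SLC38A2, SLC39A14 and SLC3A2 were lower on both arrays (8.11%, against 3.7% of all genes) and none was higher (0.435%). With arrays scaled to equal spread, limma called SLC39A14, SLC26A2 and SLC38A2 (3 of 37, against 3.05% of all genes). Leaving out the 3 h inhibitor array gave the same fit for this pair as leaving out the 24 h one. These are not separate checks, and that fit differed from the one on all 4 arrays. The spread then came from this pair alone, and its means were unchanged. With the doxycycline day as a block, SLC39A14 and SLC26A2 were called (2.34% of all genes).

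The MLN120b pair gives the same ratio with the IKKb inhibitor in both channels. SLC39A14 (-0.67), SLC26A2 (-0.52), SLC25A38 (-0.47), SLC38A2 (-0.44) and SLC25A40 (-0.36) were lowest, and SLC8B1 (0.50), SLC38A9 (0.48), SLC12A7 (0.44) and SLC35A1 (0.42) highest. Limma called 0 of 37 at an adjusted p under 0.05, whereas 3.51% of all genes passed (2.23% lower and 1.28% higher). The smallest adjusted p-values were those of SLC8B1 (0.0619), SLC39A14 (0.064), SLC25A38 (0.0822), SLC35A1 (0.083) and SLC38A9 (0.0889). These 5 passed at an adjusted p under 0.10 (13.5%, against 14.6% of all genes). An unadjusted p under 0.05 was reached by 10 SLC genes (27%, against 27.1%). None was beyond 1.5-fold on both arrays (3.07% of all genes). At 1.25-fold, SLC25A38 and SLC39A14 were lower on both (5.41%, against 7.4%) and SLC8B1, SLC38A9 and SLC35A1 higher (8.11%, against 5.8%). With the day as a block, 9 SLC genes were called, 5 lower and 4 higher, beside 25.4% of all genes. Without the 3 h array, 7 were called (24% of all genes), and without the 24 h array only SLC25A40 (4.54%), where the group rests on 1 array that is assumed to vary like the others.

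**Figure D3:**
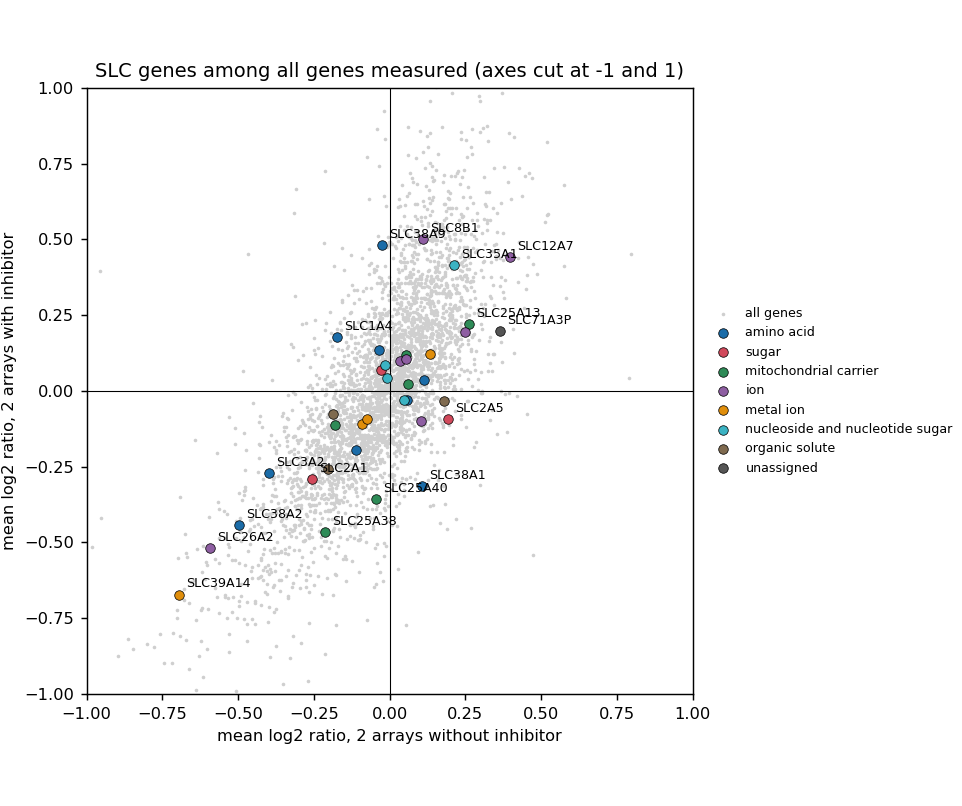
Mean log2 ratio of each gene over the 2 arrays without inhibitor (x axis) and the 2 arrays with inhibitor (y axis), with all 3675 genes in grey and the 37 SLC genes coloured by class. SLC39A14 lies at -0.69 and -0.67, SLC8B1 at 0.11 and 0.50, and SLC38A1 at 0.11 and -0.31.

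Subtracting the ratio without inhibitor from that with it compares transporters across the inhibitor, and removes dye bias that is equal on all arrays. Limma called 0 of 37 SLC genes (0% of all genes) with a smallest adjusted p of 0.998, and 3 (SLC38A1, SLC38A9 and SLC8B1) had an unadjusted p under 0.05 (8.11%, against 4.6% of all genes). Of the 37 differences, 19 were below 0 (51.4%, against 45.8% of all genes). SLC38A9 was higher with inhibitor by 0.51 (SE 0.19, 95% interval 0.05 to 0.97), by 0.58 at 2 days and 0.43 at 3 days. SLC8B1 was higher by 0.39 (SE 0.16, interval 0.01 to 0.77), by 0.42 and 0.36, and SLC1A4 by 0.35 (SE 0.16, interval -0.03 to 0.73), by 0.31 and 0.39. SLC38A1 was lower with inhibitor, at -0.42 (SE 0.17, interval -0.83 to -0.01), with -0.22 at 2 days and -0.62 at 3 days. On its 1 probe measured on all 4 arrays the difference was -0.12. SLC25A40 differed by -0.31, with -0.30 and -0.33, and SLC25A38 by -0.25, with -0.36 and -0.14. SLC1A4 was below 0 on both arrays without and above 0 on both with inhibitor (as were 3.24% of all genes), and SLC38A1 the reverse (1.96%).

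For SLC39A14 the difference was 0.02 with an interval of -0.51 to 0.55, for SLC26A2 0.07 (-0.55 to 0.69), for SLC38A2 0.05 (-0.41 to 0.52) and for SLC2A1 -0.04 (-0.42 to 0.34). These intervals do not show that the groups were alike. The groups did not overlap for 5 genes that were higher with inhibitor (SLC38A9, SLC8B1, SLC1A4, SLC35A1 and SLC3A2; 13.5%, against 18.3% of all genes). Another 5 were lower without overlap (SLC38A1, SLC25A38, SLC20A1, SLC10A1 and SLC7A6; 13.5%, against 11.3%). For SLC38A1 and SLC20A1 the groups overlapped when only probes measured on all 4 arrays were used. With that choice SLC12A7 no longer overlapped and was higher with inhibitor (0.296 and 0.587, against -0.105 and 0.011). The differences of SLC2A5, SLC35E1 and SLC71A3P changed sign by day. They were 0.10, 0.37 and 0.25 at 2 days and -0.67, -0.53 and -0.58 at 3 days. The 3-day difference of SLC2A5 took in a probe at -1.20 with a value on the 24 h array only. Other SLC genes changed sign as well, among them SLC9B2 (0.32 and -0.19), SLC39A7 (0.23 and -0.25) and SLC1A1 (-0.295 and 0.12). The share over all genes was not counted.

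**Figure D4:**
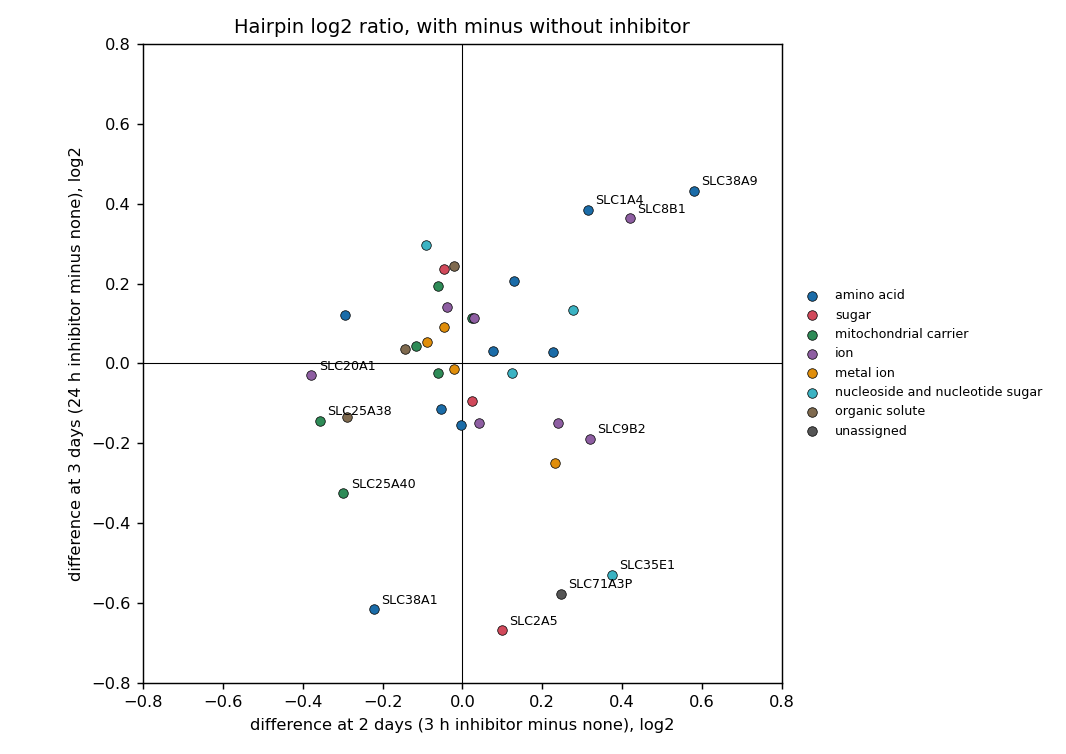
Difference of the log2 ratio, with minus without inhibitor, at 2 days (x axis, 3 h of inhibitor) and at 3 days (y axis, 24 h of inhibitor) for the 37 SLC genes coloured by class. SLC38A9, SLC8B1 and SLC1A4 lie at the upper right, with 0.58 and 0.43 for SLC38A9, and SLC38A1 at the lower left, with -0.22 and -0.62.

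Between the 2-day and 3-day arrays, 16 of the 37 SLC genes were lower at 3 days in both groups (43.2%, against 38.9% of all genes). Another 7 were higher at 3 days in both (18.9%, against 30.4%). Each day rests on 1 array per group. With inhibitor, the 3-day array also had 24 h of MLN120b and the 2-day array 3 h. Days of doxycycline and hours of inhibitor cannot be told apart there. SLC26A2 went from -0.29 to -0.89 and from -0.26 to -0.78, SLC39A14 from -0.45 to -0.94 and from -0.50 to -0.85, and SLC38A2 from -0.35 to -0.64 and from -0.28 to -0.61. SLC25A13 and SLC12A7 were higher at 3 days in both groups. The width across all genes differed by array as well, with a median absolute deviation (scaled to the SD) of 0.16 and 0.27 at 2 and 3 days without inhibitor and of 0.24 and 0.39 with it, and the part of this width in the changes by day was not tested.

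The 12 SLC genes without a value on all 4 arrays lacked values chiefly on the inhibitor arrays. All 49 had a value on the 2-day array without inhibitor, 46 on the 3-day array, 40 on the 3 h inhibitor array and 37 on the 24 h array. These were 100, 93.9, 81.6 and 75.5% of the SLC genes, against 97.9, 91.3, 88.1 and 86.5% of all genes. Of the 12, 9 had values on both arrays without inhibitor, 6 of them with a mean above 0. SLC30A4, a zinc exporter, read 0.48 and 0.65 at 2 and 3 days, SLC6A20, a proline transporter, 0.50 and 0.42, SLC6A6, the taurine transporter, 0.10 and 0.58, and SLC71A1 0.04 and 0.87. SLC9A8, a Golgi sodium/proton exchanger, stood at -0.03 on both, SLC9B1 at 0.02 and 0.17, and SLC25A32, a folate carrier of mitochondria, at -0.37 and 0.03. SLC16A10, an aromatic amino acid transporter, read 0.52 and 0.09 and then -0.30 on the 3 h array. SLC33A1, the acetyl-CoA transporter, read -0.27, 0.07 and -0.25 on the same arrays. Its probes differed in sign without inhibitor, at -0.685 and -0.178 against 0.136 and 0.319, and only the lower one had a 3 h value. The SLC30A4 averages took in different probes on the 2-day and 3-day arrays, and the probe they shared read 0.61 and 0.62. SLC11A1, a metal transporter of phagosomes, had 0.03 and 0.02 on the 2-day arrays without and with inhibitor, and SLC25A45 had 0.26 on 1 array. No reason for the empty cells is stated in the files or labels.

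Genes around the transporters were read from lists. Of 17 measured genes of amino acid synthesis and response, none passed in any comparison. Their median was -0.08 without and -0.04 with inhibitor, with 12 and 11 means below 0. ATF4, the factor that induces SLC38A2 and SLC3A2 on amino acid shortage, read -0.14, -0.46, -0.12 and -0.37. It was 1 of 5 genes of this list below 0 on every array, as were 23.8% of all genes. DDIT3 (0.28 and 0.37) and PYCR1 (0.23 and 0.44), of the same list, were above 0 on both inhibitor arrays. NUPR1 (-0.45 and -0.73) and AARS1 (-0.33 and -1.19) were below 0 on both. NUPR1 had the smallest adjusted p of the list with inhibitor (limma, 0.0531). Of the 17 means with inhibitor, 6 were above 0 and 11 below. Any link of ATF4 to the SLC values was not tested. CTH, of cysteine synthesis, read -0.23, -0.84, -0.62 and -0.74 (limma adjusted p = 0.413 and 0.064), while ASNS, asparagine synthetase, read 0.14, -0.27, -0.07 and -0.19. Of 13 transporter partners and regulators 1 passed, with inhibitor, where 3.51% of all genes did. This was OXSR1, a kinase that phosphorylates SLC12 cotransporters, at -1.55 ± 0.22 (SD, n = 2; limma adjusted p = 0.0154), against -0.84 ± 0.48 without inhibitor (0.246). BSG, the partner of lactate transporters, read -0.22, -0.37, -0.10 and -0.40. Of 7 measured ABC transporters 1 passed, ABCA5, with inhibitor at -1.10 ± 0.06 (limma adjusted p = 0.0154), against -0.78 ± 0.22 without (0.174), and of 11 genes with ATPase symbols none did. No gene of these lists passed without inhibitor or for the difference.

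CHUK, the hairpin's target, read -0.59, -0.87, -1.30 and -1.01, the sign that, with the dyes, led to the direction used here. Log ratios give no levels, so the B-cell identity of the line could not be checked against its markers. The median ratio of 7 measured B-cell markers was -0.02 without and -0.12 with inhibitor, of 6 T-cell markers 0.09 and 0.19, and of 4 myeloid markers 0.03 and 0.00, with none called, and their part in the SLC values was not tested. The arrays correlated with each other at r between 0.36 and 0.72 over all probes, as a description.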

How the data were processed

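The authors deposited 1 log ratio for each probe on each array. Neither its base nor its direction is stated, and the values were read as log2 of Cy5 over Cy3. Their range of -5.61 to 7.49 would span too many orders of magnitude in base 10. Array medians between -0.007 and 0 show that the deposited log2 values were apparently centred. No source used here gives background correction, normalization or spot filters. Signal over background is therefore unknown, and having only 4 arrays limits precision.

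The platform table paired 10169 of the 15246 probes with a single symbol, 4 with several and 5073 with none. Gene identifiers matched the RefSeq table (GRCh38.p14) for 10128 probes, and 45 kept their listed symbol. On each array the probes of a gene with a value were averaged, and the 3675 genes with a value on all 4 arrays were tested. All 4 arrays entered a single limma model (version 3.58.1, lmFit then eBayes, in R 4.3.3) that had a mean for each group of 2 arrays, 2 residual and 4.95 prior degrees of freedom. Tests were two-sided, of each mean against 0 and of their difference, with Benjamini-Hochberg adjustment over all 3675 genes and a threshold of 0.05. The fit was tested on simulated data in which 200 genes had a log2 change of 1 in size. It recovered 96.5% of them without inhibitor, 99% with it and 47% for the difference. Many changes of that size in the difference would thus be missed.

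Transporter classes follow the SLC family number. Named genes were those called or beyond 1.5-fold on both arrays of a group (none), the 2 lowest and 2 highest means of each class, the 4 largest differences of each sign and a fixed set of 39, of which 16 were on the arrays; the text gives the remaining SLC genes for completeness, after their values were seen. OXSR1, ABCA5 and other list genes were also named after their values were seen. The members and lists were chosen with earlier results of these data known. Alternatives were probes complete on all arrays, genes with at least 1 array per group, median centring, equal spread, single probes, doxycycline day as a block, a robust prior, an adjusted p under 0.10, each array left out and other sizes.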

Additional observations from a re-analysis of the deposited data

Results flagged for a closer look

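Both SLC genes given here had every array of one group on the other side of 0 from every array of the other. SLC1A4 was below 0 on both arrays without inhibitor and above 0 on both with it, a difference of 0.35 (SE 0.16, limma adjusted p = 0.998), from 1 probe. Over all genes 3.24% showed this pattern. SLC38A1 showed the reverse, above 0 without and below 0 with inhibitor, a difference of -0.42 (SE 0.17, limma adjusted p = 0.998), as did 1.96% of all genes. Its 1 probe with values on all 4 arrays was below 0 on each of them, with group means of -0.13 and -0.25. Neither difference passed the test.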

How the results depend on the processing

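The count of called SLC genes was 0 in all 3 comparisons. Without inhibitor it became 3 with arrays scaled to equal spread, 1 on single probes (1 SLC38A2 probe) and 2 when the day of doxycycline was a block, and ranged from 0 to 3 with 1 array left out. With inhibitor it became 4 probes when each was tested singly, 9 with the day as a block and 5 at an adjusted p under 0.10, and ranged from 0 to 7 with 1 array left out. For the difference it stayed at 0 under all of these alternatives, while over all genes the count went from 0 to 142 without the 3 h array, 19 without the 24 h array and 4 of 4198 with at least 1 array per group. The count beyond 1.5-fold on both arrays was 0 in each group. It became 1 without inhibitor after scaling to equal spread, where the share over all genes was not counted. At 1.25-fold, a size added after the data were seen, it was 3 without and 5 with inhibitor. These were 8.11% and 13.5% of the SLC genes, against 4.14% and 13.2% of all genes. Median centring and complete probes left the called and 1.5-fold counts at 0, and genes with at least 1 array per group and the robust prior left the called counts at 0. Over all genes the count with inhibitor was 129, and 164 of 3589 with complete probes, 103 after median centring, 53 after scaling, 794 of 6796 single probes, 933 with the day as a block, 535 at an adjusted p under 0.10 and 11 to 881 with 1 array left out; without inhibitor it went from 0 to 112 after scaling, 70 single probes, 86 with the block and 200 without either inhibitor array. Of 62 group means of named genes, 42 kept their sign in all 8 alternatives, and of 31 differences 13 did. Not all 8 could turn a sign. The day as a block changes none of these estimates, and leaving out an array of the other group cannot change a group mean. The direction of the ratio rests on the dye labels and on CHUK. The cause of these changes was not tested.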
